A study of Mus musculus with 6 samples.

Results

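The 6 genes described here are Plau, Plat, Plaur, Serpine2, Serpinf1 and Serpinb6a. They were taken by symbol, as genes of plasminogen activation and of the serpin family. This choice, and that of the lists used below, was made with earlier results of these data known. Counts of calls among these genes are therefore descriptions only. Each of the 6 genes had 1 row among the 18124 genes of the count table, so all 6 were measured. All 6 passed the filter on low counts that left 14644 genes to test. The table covers cultured mesenchymal stem cells of mouse quadriceps, taken from 6 male Col1-GFP mice, which carry a green fluorescent reporter of collagen 1. Cells positive for the reporter and for the surface antigen Sca-1 were sorted, expanded to passage 4 and exposed for 72 hours to medium conditioned by wild-type bone marrow-derived macrophages. In the control group (3 libraries) that medium came from control macrophages, and in the senescent group (3 libraries) from macrophages given 300 µM hydrogen peroxide for 3 hours, given it again 3 days later, and kept for a further 14 days. For both groups the medium collection is given as 48 hours and the macrophage differentiation as day 7. How long the control macrophages were kept is not stated, so time in culture and senescence cannot be told apart as the difference between the media. The labels do not say whether replicates are separate mice, cell isolates or batches of medium. The p-values therefore cover only the spread seen between these libraries, part or all of which may be technical.

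Plasminogen activation turns the circulating proenzyme plasminogen into plasmin, a protease that dissolves fibrin and cleaves matrix proteins and latent growth factors. Urokinase (gene Plau) and tissue plasminogen activator (gene Plat) make the cut, and the urokinase receptor (gene Plaur) holds urokinase at the cell surface. Serpins are proteins of a shared fold, most of which trap serine proteases in an irreversible complex, so they set how long an activator stays active. In injured muscle this system is known for clearing fibrin and for its part in the entry of inflammatory cells and in regeneration.

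Library totals ran from 17228162 to 21659434 estimated counts. The stromal markers Col1a1, Col1a2, Pdgfra, Ly6a, Cd34, Dcn, Thy1 and Pdgfrb were all present, with a summed level of 10689 to 10788 CPM (a gene's count scaled to a fixed library total after TMM adjustment) in control libraries and 13927 to 14463 in senescent-medium libraries. They did not move alike: Col1a1, Col1a2, Dcn, Thy1 and Cd34 were called higher, Pdgfra (log2 fold change −0.29) and Pdgfrb (−0.30) lower, and Ly6a, the gene of Sca-1, was not called. Of 11 macrophage markers 5 had a row; Ptprc, Adgre1, Itgam, C1qa, C1qb and Fcgr1 did not, and the summed level was 18.95 to 21.97 CPM in control and 18.08 to 24.19 CPM in senescent medium. Of the 4 macrophage markers tested, Lyz2 was higher (0.80), Cd14 (−1.14) and Csf1r (−0.53) were lower, and Cd68 was not called. The pericyte and smooth muscle markers (4 of 5 with a row) summed to 101 to 110 CPM in control and 67.7 to 71.5 CPM in senescent medium, and the satellite cell and muscle markers (2 of 8, Des and Acta1) to 9.41 to 11.1 and 17.5 to 19.8 CPM. Endothelial markers (4 of 7) summed to 24.2 to 26.5 and 26.3 to 33.2 CPM. Neural and glial markers (3 of 4) summed to 7.99 to 9.92 and 9.98 to 10.3 CPM, and the neutrophil marker S100a8, the only 1 of 3 with a row, lay at 0.113 to 0.169 and 0.240 to 0.533 CPM. In such bulk RNA, fewer cells of a type and less RNA per cell cannot be told apart, and the part of these markers in the results below was not tested.

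Between the media these genes differed little, with the exception of Serpinb6a. Serpinb6a rose 1.38-fold, Serpine2 and Plau rose 1.09-fold and 1.08-fold, and Serpinf1 rose 1.06-fold, while Plat and Plaur missed the threshold with means below those of the controls. A gene was called when the adjusted p of edgeR's quasi-likelihood test, by Benjamini and Hochberg's method across all 14644 genes, was at most 0.05. By that rule 4 of the 6 genes were higher and 0 were lower, where 49.5% of all tested genes were called in either direction; 24.6% of tested genes were higher and 24.9% lower. A count of 4 of 6 is read against that background, in which a call is common, so the sizes are given with each gene. That background covers genes of all levels, whereas the 4 called genes had mean CPM above 94.4% to 99.5% of listed genes. Plat lay above 89.6% and Plaur above 51.5%. Plaur missed the threshold with a larger change (log2 fold change −0.18) than that of Plau (0.12). How far the calls follow level was not tested. The median log2 fold change of the 6 genes was 0.10, beside −0.001 over all genes tested. The 3 smallest rises were lost when libraries were scaled by their totals alone, which puts the median of all genes at −0.08 on the log2 scale. With that scaling 1 of the 6 genes was higher and 2, Plat and Plaur, were lower. Without control replicate 3, 2 of the 6 were called, both higher.

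Promoter windows were matched for 4 of the 6 genes, the 3 serpins that were called higher and the receptor gene that was not, and are shown so that their letters can be compared. Each sequence covers the 250 bases before the transcription start, from RefSeq on build GRCm38.p6, 5′ to 3′ in the direction of the gene, with matches to the searched motifs in capitals.
Serpinb6a (chr13:34002795-34003044, minus strand): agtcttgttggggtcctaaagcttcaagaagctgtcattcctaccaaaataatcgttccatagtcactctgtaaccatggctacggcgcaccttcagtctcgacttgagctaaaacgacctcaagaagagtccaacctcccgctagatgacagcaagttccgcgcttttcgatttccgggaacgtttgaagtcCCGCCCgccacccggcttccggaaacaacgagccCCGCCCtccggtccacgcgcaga
Serpine2 (chr1:79858666-79858915, minus strand): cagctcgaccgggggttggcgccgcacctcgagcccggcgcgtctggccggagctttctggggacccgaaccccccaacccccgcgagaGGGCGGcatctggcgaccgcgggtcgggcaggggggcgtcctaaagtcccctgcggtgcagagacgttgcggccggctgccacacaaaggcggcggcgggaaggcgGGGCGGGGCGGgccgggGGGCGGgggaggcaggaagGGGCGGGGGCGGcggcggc
Serpinf1 (chr11:75422624-75422873, minus strand): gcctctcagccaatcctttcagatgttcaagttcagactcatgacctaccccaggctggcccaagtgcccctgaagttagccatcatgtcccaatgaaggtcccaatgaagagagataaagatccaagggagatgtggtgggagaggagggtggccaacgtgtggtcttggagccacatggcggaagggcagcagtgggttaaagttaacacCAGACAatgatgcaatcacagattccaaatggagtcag
Plaur (chr7:24462233-24462482, plus strand): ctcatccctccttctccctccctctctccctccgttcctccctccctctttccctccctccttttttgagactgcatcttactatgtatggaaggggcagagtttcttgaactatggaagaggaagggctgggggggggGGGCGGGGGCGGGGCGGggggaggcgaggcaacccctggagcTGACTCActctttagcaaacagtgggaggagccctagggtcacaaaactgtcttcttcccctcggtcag
The motifs were the AP-1 site TGANTCA, the GC box GGGCGG, the TATA box TATAAA, the SMAD box CAGACA, the cyclic AMP response element core TGACGTNN and an NF-kB site (GGGA, any base, then TTTCC), all on both strands. The Plaur window held the only AP-1 match of the 4, starting 69 bases before the start, where 6.7% of all 32851 promoter windows of that length hold one. It also held 3 GC boxes, starting 111, 105 and 100 bases before the start. The Serpine2 window held 6 GC boxes and was 78.8% G and C, against 54.4% for Serpinb6a with 2 GC boxes, and 32.7% of all windows hold at least 1 GC box. The Serpinf1 window held no GC box and 1 SMAD box, 38 bases before the start, a motif found in 17.1% of all windows. No match to the TATA box (12.4% of windows), the cyclic AMP element core (6.4%) or the NF-kB site (0.4%) was found in these 4 windows. A second RefSeq start of Serpinb6a, not printed, held none of the 6 motifs in its window. The 3 serpins that rose thus had no motif of this set in common, and a match is a description of the letters only.

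Plau (ENSMUSG00000021822) encodes urokinase, the secreted activator that works mainly at the cell surface. Its level was 164, 169 and 161 CPM in control replicates 1, 2 and 3 and 179, 178 and 180 CPM in the senescent-medium replicates. The senescent-medium libraries all lay above the controls, and they lay closer together (178.7 ± 0.91 against 164.7 ± 4.14 CPM, mean ± SD, n = 3 libraries each). The log2 fold change was 0.12 ± 0.037 (SE), with a 95% interval of 0.042 to 0.19 (adjusted p = 0.0089, edgeR). This is a small change for the table, since 27.5% of tested genes moved by less in either direction. Without control replicate 3, the lowest control library, Plau missed the threshold (log2 fold change 0.098, adjusted p = 0.061, edgeR). With library totals alone the value was 0.036 (adjusted p = 0.43).

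Plat (ENSMUSG00000031538) encodes tissue plasminogen activator, the form best known for acting on fibrin. Its level was 109, 101 and 103 CPM in the controls and 103, 99.5 and 97.4 CPM in senescent medium. The libraries of both groups overlapped, and senescent-medium replicate 1 lay within the control range. The log2 fold change was −0.07 ± 0.043 (SE), with a 95% interval of −0.15 to 0.022 (adjusted p = 0.21, edgeR). The interval holds 0 as well as small falls, so these libraries do not settle whether Plat changed. With library totals alone Plat passed the threshold as lower (−0.15, adjusted p = 0.0050, edgeR).

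Plaur (ENSMUSG00000046223) encodes the lipid-anchored receptor that binds urokinase. It was the scarcest of the 6 genes, with 191 to 275 estimated counts per library. Its level was 12.96, 12.68 and 12.65 CPM in the controls and 12.14, 10.17 and 11.49 CPM in senescent medium. All senescent-medium libraries lay below all controls, with replicate 2 the lowest, and the spread was wider in senescent medium (11.3 ± 1.00 against 12.8 ± 0.17 CPM). The log2 fold change of −0.18 ± 0.099 (SE) had a 95% interval of −0.38 to 0.026 and missed the threshold (adjusted p = 0.14, edgeR). Without senescent-medium replicate 2 the value was −0.11 (adjusted p = 0.44, edgeR). With library totals alone Plaur was called lower (−0.26, adjusted p = 0.033, edgeR).

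Serpine2 (ENSMUSG00000026249) encodes protease nexin-1, a secreted inhibitor of thrombin, urokinase, tissue plasminogen activator and plasmin. Its level was 373, 367 and 364 CPM in the controls and 412, 403 and 388 CPM in senescent medium. The groups did not overlap, with 367.9 ± 4.74 CPM in control and 401 ± 12.4 CPM in senescent medium. The log2 fold change was 0.12 ± 0.034 (SE), with a 95% interval of 0.055 to 0.19 (adjusted p = 0.0029, edgeR). The call held in each of the 6 fits that left out 1 library, and was lost with library totals alone (0.043, adjusted p = 0.29, edgeR).

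Serpinf1 (ENSMUSG00000000753) encodes pigment epithelium-derived factor, a secreted serpin that acts on vessels and nerve cells and does not inhibit proteases. Its level was 1018, 981 and 990.3 CPM in the controls and 1083, 1060 and 1028 CPM in senescent medium. The groups did not overlap, but senescent-medium replicate 3 lay close to control replicate 1. The log2 fold change was 0.09 ± 0.033 (SE), with a 95% interval of 0.019 to 0.15 (adjusted p = 0.031, edgeR), the smallest of the 4 rises. The call was lost in 4 of the 6 fits that left out 1 library: without control replicate 2 the log2 fold change was 0.074 (adjusted p = 0.11, edgeR) and without control replicate 3 it was 0.079 (adjusted p = 0.094). Without senescent-medium replicate 1 it was 0.069 (adjusted p = 0.14, edgeR) and without replicate 2 it was 0.085 (adjusted p = 0.088). With library totals alone it was 0.0037 (adjusted p = 0.93, edgeR).

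Serpinb6a (ENSMUSG00000060147) encodes an intracellular serpin of clade B, the clade that stays in the cytosol and nucleus and guards against the cell's own or leaked proteases. Its level was 377, 384 and 358 CPM in the controls and 511, 515 and 518 CPM in senescent medium. The lowest senescent-medium library was far above the highest control library, and the senescent-medium libraries were close together (514.6 ± 3.28 against 373 ± 13.4 CPM). The log2 fold change was 0.46 ± 0.034 (SE), with a 95% interval of 0.39 to 0.53 (adjusted p = 7.88e-13, edgeR), and 76.6% of tested genes moved by less. Over the alternatives, 13 in all, the log2 fold change ran from 0.38 with library totals to 0.49 without control replicate 2, and the call held in each. In the GENCODE annotation 14.1% of the exon length of Serpinb6a is overlapped by Nqo2 on the opposite strand, and whether counting used strand is not given. Nqo2, an oxidoreductase gene, was at 36.7 ± 0.86 CPM in control and 37.8 ± 0.96 CPM in senescent medium, far below Serpinb6a, and its log2 fold change was 0.04 (adjusted p = 0.57, edgeR). No window of 100 bases in the transcripts of any of the 6 genes recurred, on the same strand, in transcripts of a gene outside the 6. Opposite-strand matches, such as the overlap with Nqo2, were not searched, so this check does not cover them.

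**Figure D1:**
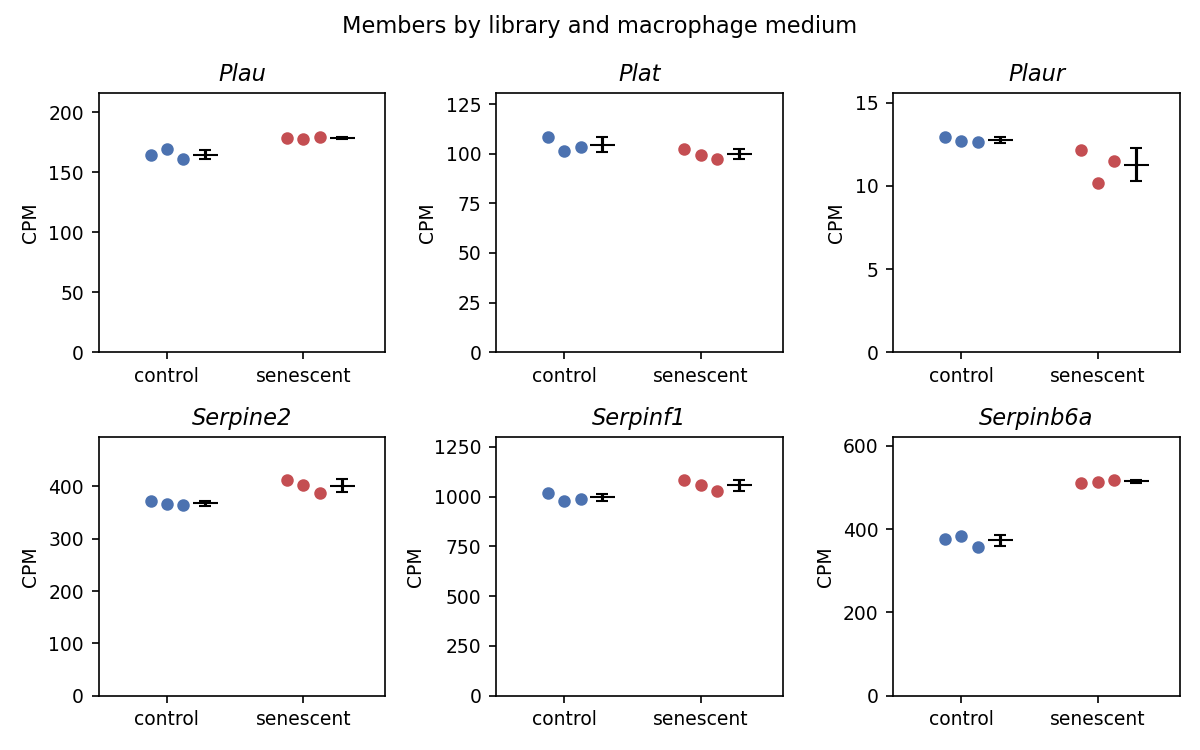
Level of each of the 6 genes in CPM (y axes from 0) in the 3 control-medium and 3 senescent-medium libraries, replicates 1 to 3 from left to right; black bars are mean ± SD. Serpinb6a moves from 358 to 384 CPM in control to 511 to 518 CPM in senescent medium, while the other 5 genes stay close to their control levels.

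The CPM ranges of both groups did not overlap for 5 of the 6 genes, all but Plat, where 55.8% of all tested genes had ranges that did not overlap. Within senescent medium the libraries did not share 1 order: Serpine2 and Serpinf1 were highest in replicate 1 and lowest in replicate 3, Plat likewise, while Serpinb6a differed by little between them.

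**Figure D2:**
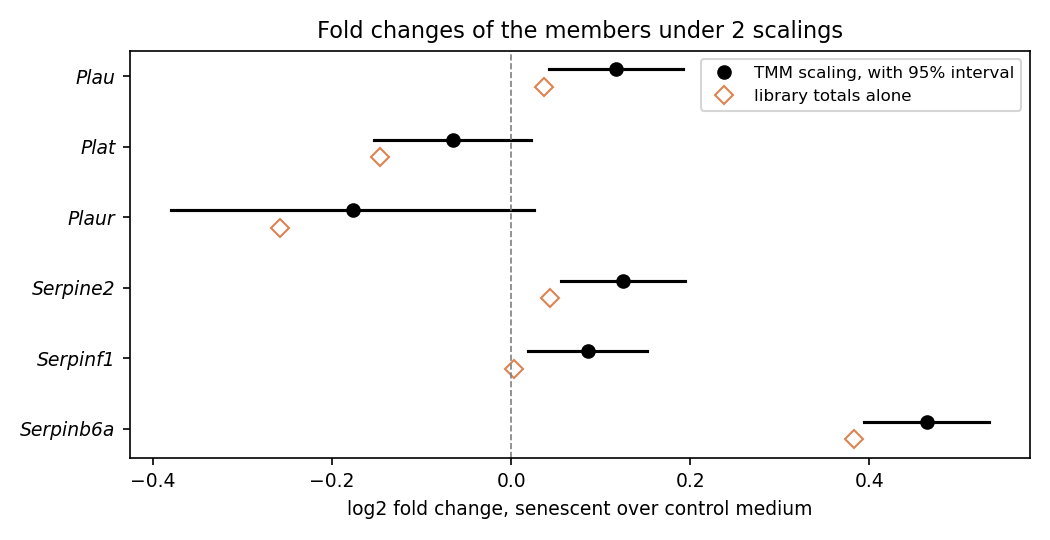
Log2 fold change of senescent over control medium (x axis) for the 6 genes, with TMM scaling and its 95% interval (filled circles) and with library totals alone (open diamonds). The scaling moves every gene down by a similar step of about 0.08, which leaves Serpinb6a at 0.38 and takes Serpinf1 to 0.0037.

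Ratios of counts within a library do not depend on how libraries are scaled. The ratio of Plau to Plat was 1.51, 1.67 and 1.55 in the controls and 1.74, 1.79 and 1.84 in senescent medium. These values did not overlap, and the mean ratio was 1.14-fold higher in senescent medium (difference of 0.18 on the log2 scale). The ratio of Plau to Plaur, of the protease to its receptor, was 12.7, 13.3 and 12.7 in the controls and 14.7, 17.5 and 15.6 in senescent medium, 1.23-fold higher. The ratio of Plat to Serpine2 was 0.291, 0.276 and 0.284 in the controls and 0.249, 0.247 and 0.251 in senescent medium, a change of −0.19 on the log2 scale. By contrast the ratio of Plau to Serpine2 was 0.441, 0.460 and 0.442 against 0.433, 0.441 and 0.463, with groups that overlapped and a difference of −0.0063. The exact two-sided permutation test over the 6 libraries gave p = 0.1 for the first 3 ratios, the smallest p that 3 against 3 libraries allow, and p = 0.8 for Plau to Serpine2 (adjusted over the 4 ratios, 0.13 and 0.8). None of the 4 could pass 0.05 in this design.

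Levels of different genes compare only per length. With merged exons from GENCODE M21 as the length, the order in control medium was Serpinf1 (422 ± 8.27 CPM per kb), Plau (69.6 ± 1.75), Serpinb6a (69.0 ± 2.48), Serpine2 (44.4 ± 0.57), Plat (16.7 ± 0.59) and Plaur (4.88 ± 0.064; SD, n = 3 libraries). Plau and Serpinb6a overlapped in control medium, and all other neighbours were apart by more than their ranges. In senescent medium Serpinb6a (95.1 ± 0.61 CPM per kb) lay above Plau (75.5 ± 0.38), with no overlap. Merged exons of Serpine2, Serpinb6a and Plat are much longer than their main transcripts, so the order was also taken with the longest principal transcript. Serpinf1 then led in control medium with 544 ± 10.7 CPM per kb, before Serpinb6a (226 ± 8.10), Serpine2 (166 ± 2.14), Plau (70.3 ± 1.77), Plat (41.4 ± 1.46) and Plaur (8.48 ± 0.11), with no neighbours that overlapped. Plau was above Plat, and Plat above Plaur, under both lengths, whereas the order of Plau and Serpine2 turned with the length used.

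**Figure D3:**
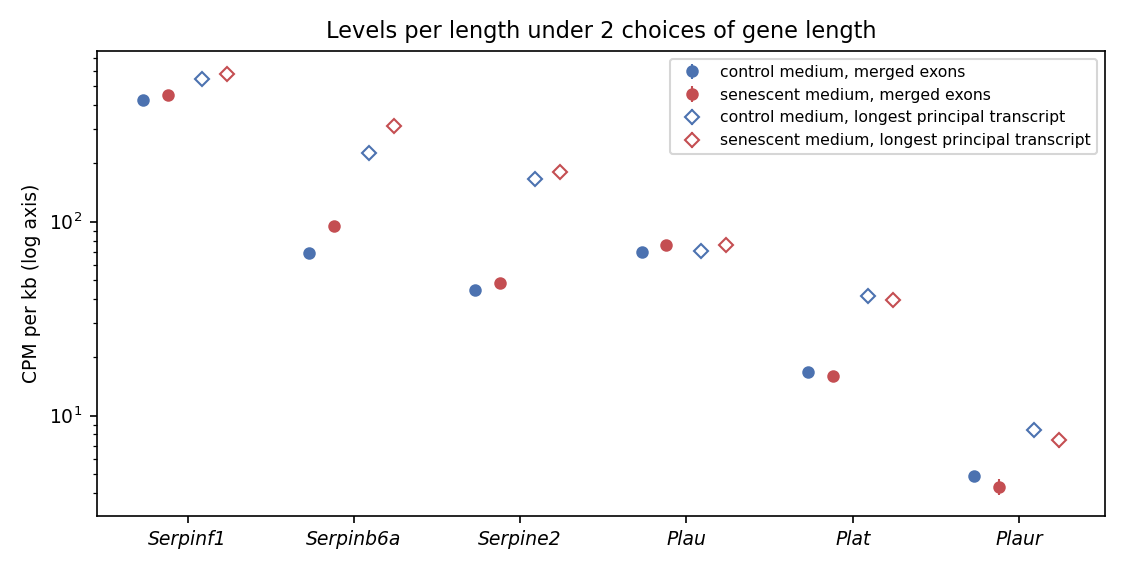
Level per length in CPM per kb (log axis) of the 6 genes, mean ± SD of 3 libraries per medium, with merged exons (filled) or the longest principal transcript (open) as the length. Plaur is lowest and Serpinf1 is the highest of the 6 genes with either length.

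The wider plasminogen activation list holds 51 genes, of which 40 had a row and 33 were tested; Plg, the gene of plasminogen itself, had no row. These include 5 of the 6 genes, all but Serpinf1. Of the rest, 16 of 28 were higher and 6 were lower, with 6 not called, where 24.6% of all tested genes were higher and 24.9% lower. By role, with those 5 genes counted again, 11 of the 16 tested receptors and binding proteins were higher and 1 was lower. Their median log2 fold change was 0.27. Of 8 tested inhibitors 4 were higher, Serpine2 and Serpinb6a among them, and 2 lower (median 0.01). Of 6 tested neighbours of the cascade 3 were higher and 3 lower (median −0.03). Only Plau of the 3 tested activators and proteases was called. Over the whole list 19 of the 33 were higher and 6 lower, against 15 and 8 with library totals alone. The list was chosen with earlier results of these data known, so its counts are a description and not a test.

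Several of the binding partners moved by more than the activators and the urokinase receptor did, though these differences between genes were not tested. Vldlr, an endocytic receptor that takes up urokinase bound to its inhibitor, went from 24.0 ± 0.88 CPM up to 75.8 ± 4.68 CPM, with a log2 difference of 1.66 ± 0.060 (SE; adjusted p = 2.44e-20, edgeR). Mrc2, a collagen uptake receptor that associates with the urokinase receptor, rose from 422 to 677 CPM (0.68 on the log2 scale). Eno1, a glycolytic enzyme that also binds plasminogen at the cell surface, rose from 576 to 1036 CPM (0.85); it has processed copies in the genome, so its counts carry some uncertainty. Thbd, the gene of thrombomodulin, which turns thrombin from clotting to anticoagulant work, rose from 140 to 245 CPM (0.81). Some further genes are named for their role, after their values were seen. Anxa2 and S100a10, whose products form a complex that binds plasminogen and tissue plasminogen activator, rose with log2 fold changes of 0.36 and 0.56. Plgrkt, the gene of a plasminogen receptor, was at 16.1 CPM in control and 16.2 CPM in senescent medium. It was not called (log2 fold change 0.0084, adjusted p = 0.94, edgeR). Itgb3, a subunit of the vitronectin receptor, rose from 16.0 to 33.6 CPM (1.07). Lrp8, a receptor of the same family as Vldlr, was the only gene of this role called lower, from 16.8 ± 1.30 to 9.83 ± 0.30 CPM (−0.77). Lrp1, the main clearance receptor for both activators, was at 3269 ± 234 CPM in control and 3543 CPM in senescent medium and was not called (0.12, adjusted p = 0.21, edgeR). It passed without control replicate 2 (0.17, adjusted p = 0.047, edgeR) or without senescent-medium replicate 1 (0.17, adjusted p = 0.0067), and the 6 fits that left out 1 library ranged from 0.061 to 0.17. Its chaperone gene Lrpap1 was higher (0.32). F3, the gene of tissue factor, which starts clotting, and Tfpi, the gene of its inhibitor, fell with log2 fold changes of −0.45 and −0.33.

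**Figure D4:**
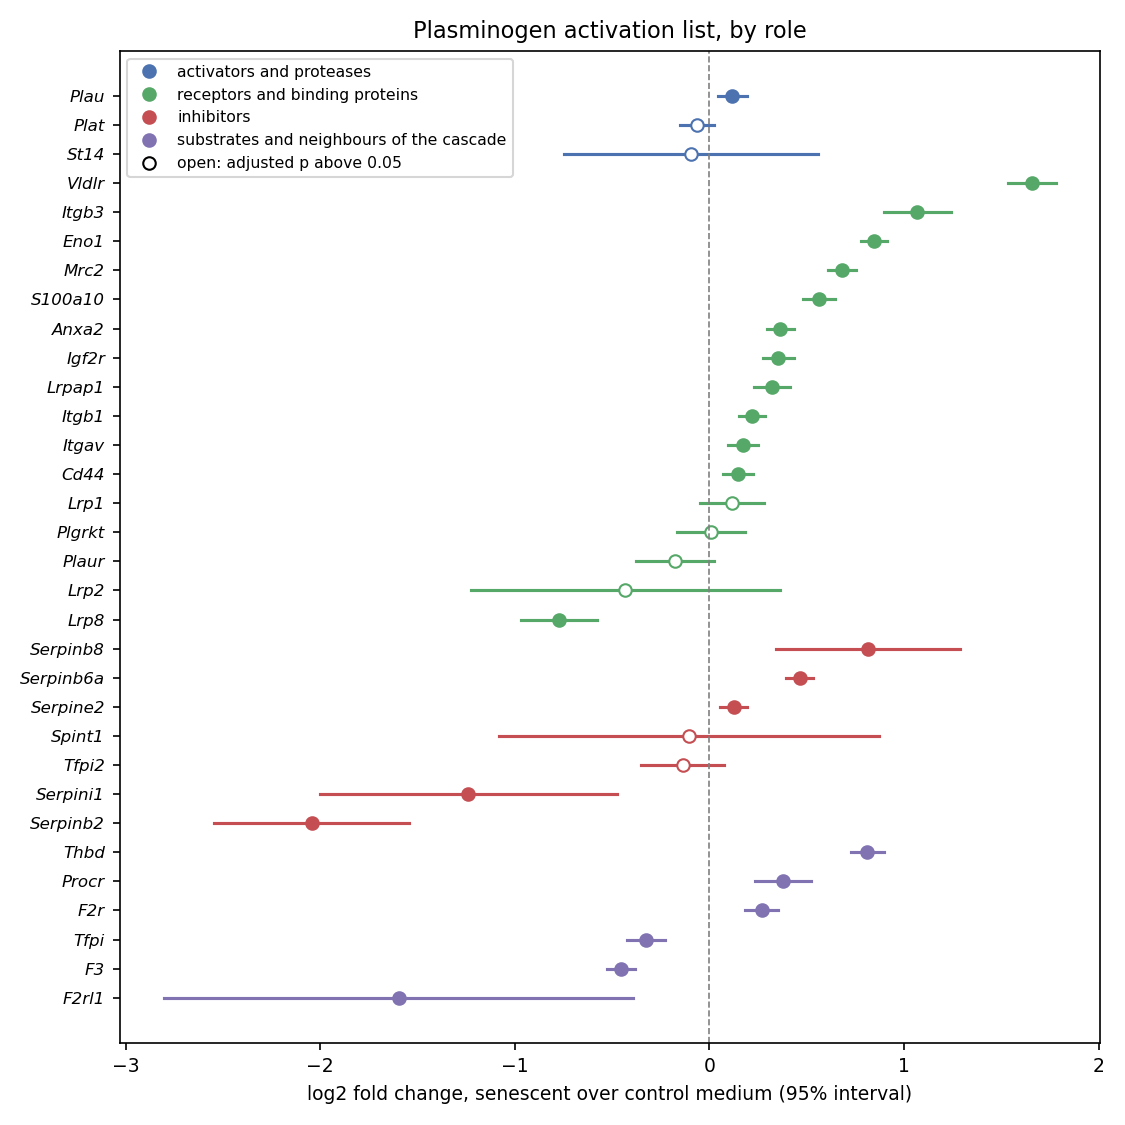
Log2 fold change of senescent over control medium with 95% intervals (x axis) for 32 of the 33 tested genes of the plasminogen activation list, coloured by role; open circles have an adjusted p above 0.05. Most receptors and binding proteins lie to the right of 0, up to Vldlr at 1.66, while Plau and Plat lie close to 0.

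The serpin family list took every gene with a Serpin symbol, 28 with a row and 21 tested. Leaving out Serpine2, Serpinf1 and Serpinb6a, 5 of the 18 others were higher and 7 lower, with 6 not called, beside 24.6% higher and 24.9% lower over all tested genes. The family median was −0.09 over all 21. With library totals alone 5 of the 21 were higher and 7 lower, against 8 and 7 with TMM scaling. Serpinh1, the gene of the collagen chaperone HSP47, went up from 1078 ± 31.2 CPM to 1702 ± 17.3 CPM (log2 difference 0.66 ± 0.032, adjusted p = 5.35e-17, edgeR). Serpinb9b, a clade B relative, rose from 71.7 to 91.2 CPM (0.35). Serpinb2, the gene of plasminogen activator inhibitor 2, was scarce at 4.07 ± 0.86 CPM in control and fell to 0.98 ± 0.20 CPM in senescent medium (−2.04 ± 0.25 on the log2 scale, adjusted p = 3.11e-08, edgeR); Serpinb10 overlaps 12.4% of its exon length on the same strand. Serping1, the complement C1 inhibitor gene, fell from 166 to 111 CPM (−0.58) and is named after its values were seen.

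The closest relatives of Serpinb6a did not move with it as a group. Serpinb6b went from 11.5, 11.3 and 11.2 CPM in the controls to 4.27, 3.73 and 4.76 CPM in senescent medium, a log2 fold change of −1.41 ± 0.13 (SE; adjusted p = 9.69e-11, edgeR). Serpinb6c, named after its values were seen, went from 1.07, 0.692 and 0.787 CPM to 2.69, 2.61 and 3.22 CPM (1.75 ± 0.27, adjusted p = 3.00e-06, edgeR). So the abundant Serpinb6a and the scarce Serpinb6c rose and Serpinb6b fell, each with groups that did not overlap. All 3 kept direction and call under the 13 alternatives. They belong to a family of similar genes, and how reads that fit several of them were counted is not given. Serpinb6a shared no window of 100 bases with transcripts of another gene, while Serpinb6b and Serpinb6c were not checked in this way.

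**Figure D5:**
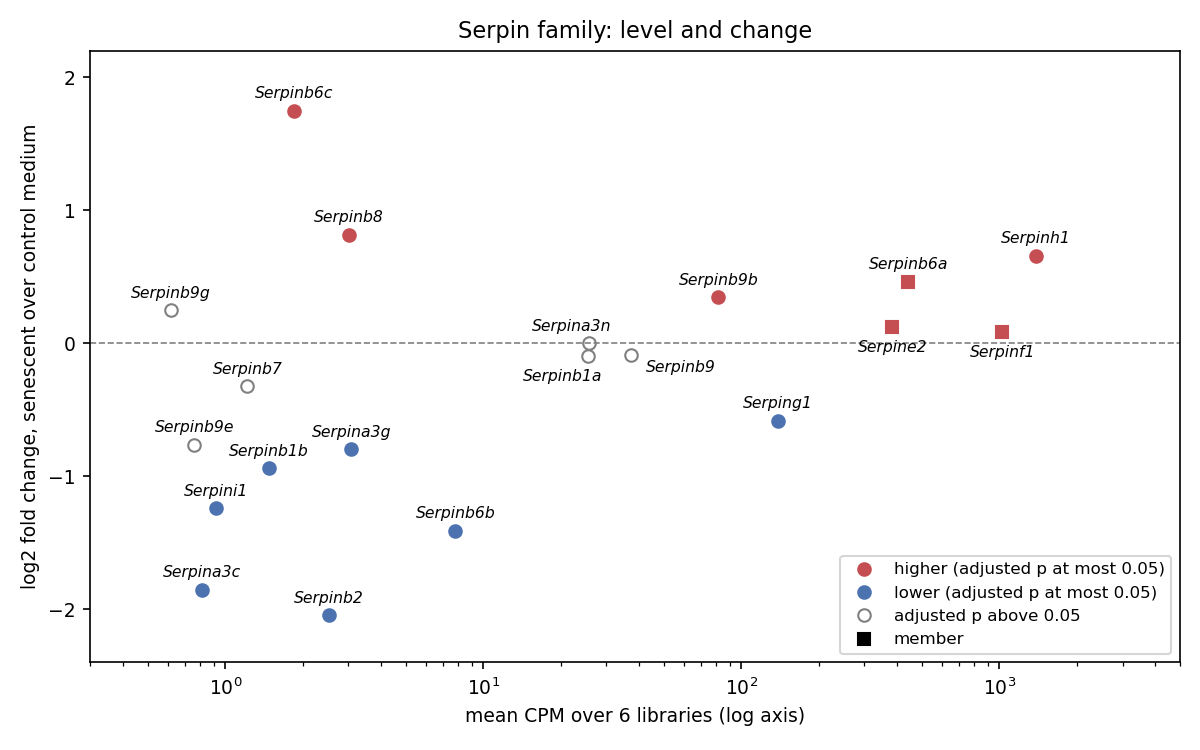
Log2 fold change of senescent over control medium (y axis) against mean CPM over the 6 libraries (log axis) for 20 of the 21 tested serpin genes; squares are Serpine2, Serpinf1 and Serpinb6a, and open circles have an adjusted p above 0.05. The 4 most abundant of these lie between 0.09 and 0.66, and the scarce ones spread from −2.04 to 1.75.

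Profiles over the 6 libraries were compared by the root mean square difference of log2 CPM, each gene centred on its own mean, among 10245 genes with a mean of at least 5 CPM. The nearest to Serpinb6a were Plekhb2 (difference of 0.021) and Gng11 (0.023), with log2 fold changes of 0.48 and 0.45. For Plau they were Ptk2b (0.0076) and Tyw1 (0.013), for Serpine2 Txndc5 (0.0095), and for Serpinf1 Ctsh (0.011) and Fech (0.012). Mgst1 and Kars were nearest to Plat (0.012 and 0.014) and Ebpl and Tdp2 to Plaur (0.026 and 0.027). None of the 6 genes was nearest to another of them. Such flat profiles are common: 601 genes lay within 0.05 of Plau and 602 of Serpinf1, against 117 of Serpinb6a and 54 of Plaur.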

How the data were processed

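RNA of cultured mouse mesenchymal stem cells was sequenced in 6 libraries, 3 per macrophage medium, with groups and replicate numbers from the sample titles. The deposited table gives estimated counts per Ensembl gene, unscaled. The tools STAR and DESeq2 and the build mm39 stand in the submitters' processing notes without their roles; how reads were counted, with which annotation and strand setting, is not given in the sources used here. Per library, 70.3% to 72.8% of values were whole to within 0.01, and all were rounded before testing. Every listed gene had at least 10 counts over the 6 libraries, so a gene without a row may have had fewer counts. Symbols and lengths came from GENCODE M21 (build GRCm38), which named 18092 of 18124 identifiers.

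The test was edgeR 4.0.16's quasi-likelihood test in R 4.3.3 (TMM factors, edgeR's expression filter, robust dispersion, medium as the only term, two-sided, Benjamini-Hochberg adjustment over 14644 genes). SEs are the size of the log2 fold change over the root of its F statistic. CPM uses TMM-adjusted library sizes. Simulated data for this comparison held 14644 genes, 14460 of them past the filter. There the test recovered 44% of 1.2-fold and 78% of 1.5-fold changes, with 14 calls among 14263 unchanged genes. That simulation changed only 50 genes at each size of change, whereas 49.5% of tested genes were called in the data. The adjusted threshold was therefore stricter there, and these recovery rates do not carry over to the data. Alternatives were DESeq2 1.42.0, limma-voom (limma 3.58.1), library totals, RLE factors, 2 other filters, the replicate number as a block and each library left out in turn; the length of the principal transcript and the repeats for single named genes were added after the data were seen. Named list genes are the 4 per list with the smallest adjusted p at a mean of at least 1 CPM, the 6 genes left out, and the 2 nearest profiles per gene. The members and lists were chosen with earlier results of these data known. A list gene and a near profile are not reported here, though they count in the totals.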

Additional observations from a re-analysis of the deposited data

How the results depend on the processing

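The rise of Serpinb6a kept direction and call in all 13 alternatives. With library totals alone the log2 fold changes of Plau, Serpine2 and Serpinf1 were 0.036, 0.043 and 0.0037 (adjusted p = 0.43, 0.29 and 0.93, edgeR) and missed the threshold, while Plat (−0.15, adjusted p = 0.0050) and Plaur (−0.26, adjusted p = 0.033) passed it as lower; the cause was not tested. That scaling called 2589 genes higher and 4813 lower, against 3607 and 3644, and moved the median of all genes from −0.001 to −0.082. Leaving out 1 library at a time gave log2 fold changes of 0.098 to 0.14 for Plau, −0.088 to −0.040 for Plat, −0.23 to −0.11 for Plaur, 0.11 to 0.15 for Serpine2, 0.069 to 0.11 for Serpinf1 and 0.43 to 0.49 for Serpinb6a. Plaur moved by over 1.5 times without senescent-medium replicate 2 (−0.11). Of the 6 genes, 2 to 4 were then called, with 2 without control replicate 3. The Plau to Serpine2 ratio, close to 0 as a log2 difference, changed sign without control replicate 2 (0.014) and without senescent-medium replicate 1 (0.014) or 2 (0.0017), with a range of −0.034 to 0.014. The value of Nqo2 changed sign with library totals (−0.037). Deviations from the group means correlated at 0.019, 0.002 and 0.026 within same-numbered pairs over all tested genes. The numbers thus showed no pairing over the table as a whole, but a batch acting on some genes only was not tested. With the replicate block 7402 genes were called, and the same 4 of the 6 genes were called higher. Plat and Plaur again missed the threshold, and Plau to Serpine2 differed by −0.0063. Lrp1 passed the threshold with the block (0.12, adjusted p = 0.00075, edgeR). With the principal transcript as the length, an alternative chosen after seeing the data, Serpinb6a, Serpine2 and Plau ranked 2, 3 and 4 by level. Plaur had 191 to 275 counts per library.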
